A study of Caenorhabditis elegans with 79 samples.

Results

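The regions described here are 255 of the 100257 regions of 1 kb into which the Caenorhabditis elegans genome is divided in the deposited chromatin table. In them, trimethylation of histone H3 at lysine 9 (H3K9me3) was strong in late wild type (WT) and weaker in late hrde-1 and late morc-1 mutants. The members were chosen by their values in 5 H3K9me3 libraries, on the scale of log2(FPKM + 1), where FPKM is the fragment count scaled to region length and library size. A member had at least 15 FPKM in WT late, fell from WT by at least 0.7 in each hrde-1 late library and by at least 0.5 in each morc-1 late library. It also had a mean input of at least 2 FPKM and neither the GRH nor the GRTS mark, which the authors' deposited table gives to 381 regions and does not spell out. Of the 570 regions that met every condition but the one on morc-1, 255 met that one too. A further 69 of the 570 fell by less than 0.25 in both morc-1 late libraries and are called the kept regions.

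In the germline of this worm the Argonaute protein HRDE-1 carries small RNAs into the nucleus, where H3K9me3 is laid down on matching loci, and the silencing can pass to later generations. MORC-1 belongs to the family of GHKL ATPases that compact chromatin. Trimethylation at lysine 36 (H3K36me3) marks transcribed chromatin and in worms is deposited by MET-1, in step with transcription, and by MES-4 in the germline. The comparisons ask how both marks at the members depend on morc-1 and hrde-1, and what loss of met-1 adds. Whether the members are targets of small RNAs was not tested.

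The strains were N2 (WT), morc-1(tm6048), hrde-1(tm1200), met-1(xk4), met-1(xk4);morc-1(tm6048) and the double mutant of met-1(xk4) with hrde-1, whose second allele is labelled hrde(tm1200). H3K9me3 of the met-1 strains was not analysed here. All were fed OP50 bacteria, were kept at 20 °C beforehand and were grown at 25 °C from the parental generation. Early stands for generation 1 and late for generation 4 or 5. Chromatin came from whole young adults, with the antibody ab8898 for H3K9me3 and a WAKO antibody for H3K36me3. In whole animals, fewer cells with a mark and less of the mark per cell cannot be told apart. H3K9me3 was analysed in the 3 strains with met-1, with 1 library per early group and 1 for WT late (generation 4). The late groups of morc-1 and hrde-1 each had 2 (generations 4 and 5). H3K36me3 was analysed in all 6 strains, with 1 library per early group, 3 for WT late and 2 for every other late group. These late libraries were of generation 4, except WT late replicate 3 and morc-1 late replicate 2, which were of generation 5. No label says that replicates were separate cultures, so the p-values speak of the spread among these libraries, which may be technical.

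From the step between low values, the libraries held an estimated 8.57 to 16.1 M (mega) fragments for H3K9me3 and 6.98 to 12.2 M for H3K36me3, where a step 2 times as large or small is not excluded. In mRNA libraries from gravid adults, morc-1 stood at 11.999 and 9.77 FPKM in morc-1 late against 36.2 and 24.3 in WT late. The hrde-1 mRNA was at 81.1 and 68.5 FPKM in hrde-1 late against 102 and 97.2 in WT late, so most of that transcript was still present. No mRNA of a met-1 strain was analysed here. Of 21 genes of nuclear RNAi and of H3K9 and H3K36 methylation, 0 passed limma's adjusted threshold of 0.05 in the 4 mRNA comparisons. An unadjusted p under it was found at 1 and 2 in hrde-1 and morc-1 early, and at 2 and 10 in hrde-1 and morc-1 late. In morc-1 late the H3K9, nuclear RNAi and H3K36 lists had log2 medians of 0.70, 0.81 and 1.06, against 0.16 over all genes. There the morc-1 transcript itself did not pass (limma adjusted p = 0.144), so lack of a call does not show that a gene was unchanged. All 6 sperm markers, among them the major sperm protein gene msp-142, rose in hrde-1 late by limma (7.21% of all genes rose), and their summed level was 399 and 967 FPKM there, 75.5 and 103 in morc-1 late and 18.7 and 125 in WT late. Of 6 intestine markers, ifb-2 and cpr-4 fell in hrde-1 late (1.42% of all genes fell), and the summed level was 454 and 386 FPKM there, 941 and 913 in morc-1 late and 1643 and 2028 in WT late, with vit-2 and vit-6 listed at 0 in each. None of the 10 germline markers passed (2 at an unadjusted p under 0.05), and their sums were 1585 and 1402 FPKM in hrde-1 late, 1879 and 1846 in morc-1 late and 1232 and 1102 in WT late. None of 5 muscle markers passed in hrde-1 late (2 at an unadjusted p under 0.05). Their sums were 365 and 652 FPKM in hrde-1 late, 651 and 620 in morc-1 late and 1024 and 620 in WT late, so the strains overlapped. The part of these differences in the chromatin results was not tested.

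The 255 members formed 145 runs of touching regions, and members of a run share a locus. There were 80 runs of 1 region, 40 of 2, 18 of 3, 4 of 4, and 1 each of 7, 8 and 10. Coordinates are those of the deposited table, counted from 1, and their build is not given in the sources used here. Longest was the run at chromosome I 2051001 to 2061000, and next came X 149001 to 157000 and IV 2897001 to 2904000. Runs of 4 regions began at I 2045001, V 17516001, V 19866001 and IV 2481001. The runs of 3 regions with the largest falls in hrde-1 began at I 2041001, I 13660001 and III 3449001.

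Chromosome I held 65 members, IV 59, V 55, X 34, II 25 and III 17. With each chromosome cut into 3 equal parts, the outer parts held 93.7% of members, close to the 94.7% of the 7645 strong H3K9me3 regions that fell by less than 0.25 in both hrde-1 late libraries (the independent regions). The share over all regions was 66.7%. Many members lay beside loci that the rule had left out. A region marked GRH or GRTS in the authors' deposited table was within 1 kb of 63 members (24.7%) and within 10 kb of 123 (48.2%). Those shares were 5.8% and 27.5% for the 69 kept regions, and 1.46% and 6.03% for all 11081 unmarked regions with at least 15 FPKM in WT late. On chromosome X the authors' deposited table marks 3 regions as GRH or GRTS, whereas 34 members lay there.

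The late H3K9me3 values describe how the members were chosen and carry no test. The median over members was 23.7 FPKM in WT late, 7.29 and 8.32 in hrde-1 late and 11.2 and 10.6 in morc-1 late. The fall from WT, averaged over the libraries of a strain, had a median of 1.43 in hrde-1 (range 0.72 to 2.76 on the log2 scale) and of 0.91 in morc-1 (range 0.52 to 2.14). In 178 members both hrde-1 late libraries lay below both morc-1 late libraries. The rule asked for a larger fall in hrde-1 than in morc-1 in these same libraries. It therefore favoured this order, and no conclusion is drawn from it. Nearest inside the morc-1 threshold were X 58001 to 59000, X 28001 to 29000 and V 5479001 to 5480000, with a smaller fall of 0.505, 0.508 and 0.508. Nearest outside were II 2522001 to 2523000, I 249001 to 250000 and IV 2904001 to 2905000, with 0.497, 0.497 and 0.496. The last of these touches the run of 7 regions on chromosome IV.

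**Figure D1:**
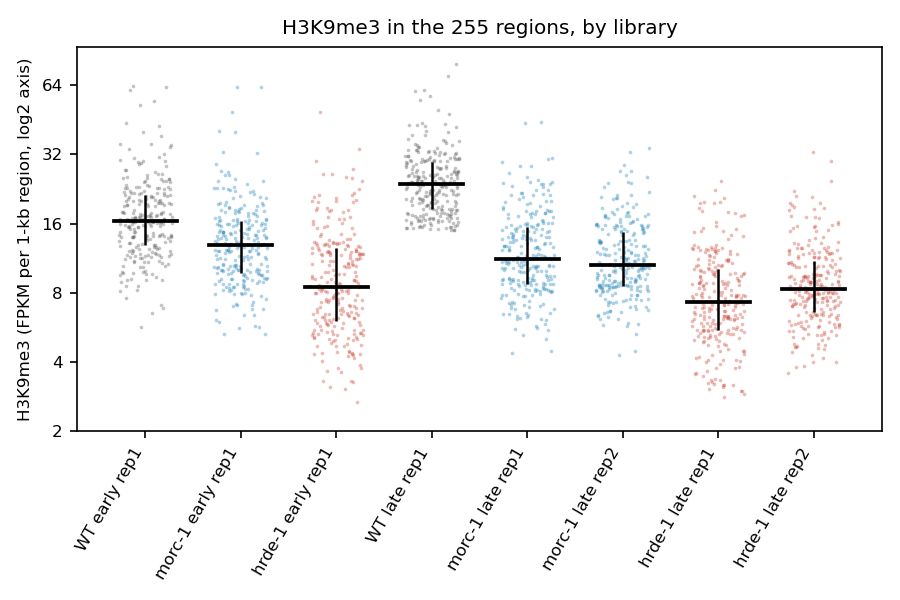
H3K9me3 in FPKM on a log2 axis for each of the 255 regions (points) in each of the 8 libraries; the horizontal bar is the median and the vertical bar spans the quartiles. Medians run from 23.7 FPKM in WT late through 11.2 and 10.6 in morc-1 late to 7.29 and 8.32 in hrde-1 late, and in the early libraries from 16.4 (WT) through 12.9 (morc-1) to 8.46 (hrde-1).

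In generation 1 the medians over all members also had the order WT above morc-1 above hrde-1, but those on chromosome X did not. The rule did not use the early libraries, but with 1 per strain there is no test. The early median over members was 16.4 FPKM for WT, 12.9 for morc-1 and 8.46 for hrde-1. One by one, 186 members followed this order, and the share of all regions that did so was not computed. Against WT early the median difference was −0.89 on the log2 scale in hrde-1 and −0.30 in morc-1, where the medians over all regions were −0.05 and 0.05. A fall of at least 0.5 was found at 192 members in hrde-1 early, against 3.4% of all regions, and at 65 members in morc-1 early, against 0.499%. Between the mutants, hrde-1 early was lower than morc-1 early by at least 0.5 at 126 members, against 5.25% of all regions. The WT and morc-1 early libraries carry one series number in their sample names and the hrde-1 early library another, so strain and series cannot be told apart in the hrde-1 early values.

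The late libraries of all 3 strains were among the values that chose the members, by a high WT and low mutants, so their differences from the early libraries are given as a description only. WT late lay above WT early in 243 members and in 54011 of all 100250 regions. The median difference was 0.49 on the log2 scale over members and 0.03 over all regions. The morc-1 late libraries differed from morc-1 early by medians of −0.09 and −0.16 over members, and of −0.05 and 0.01 over all regions. The hrde-1 late libraries differed from hrde-1 early by medians of −0.19 and 0.03 over members, and of 0.03 and 0.09 over all regions. At the longest run the mean H3K9me3 was 36.9 FPKM in WT early and 33.9 in morc-1 early, and the late values were 47.3 for WT and 21.9 and 17.1 for morc-1. In hrde-1 it was 13.3 early and 11.4 and 16.4 late. There morc-1 stood near WT in generation 1, and its lower late values are among those the rule used.

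**Figure D2:**
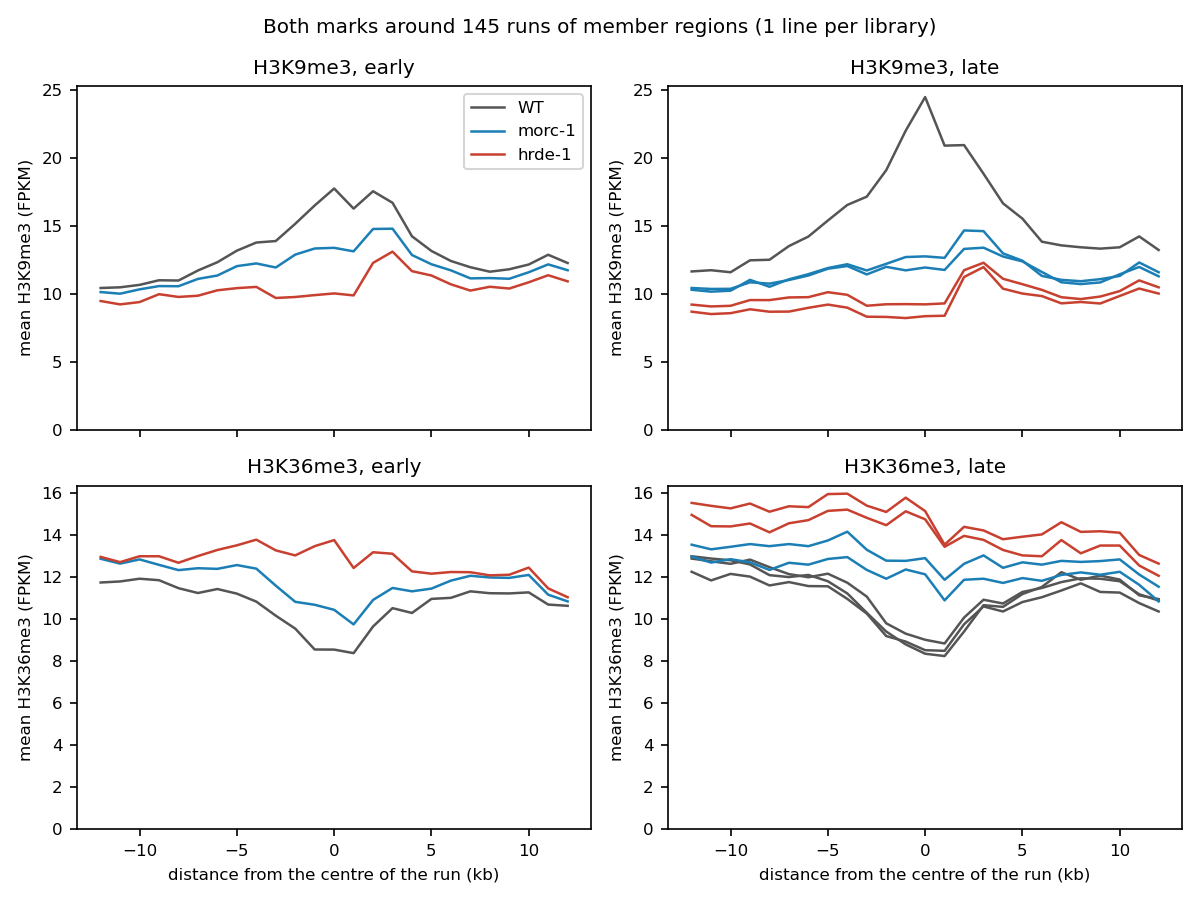
Mean FPKM of H3K9me3 and H3K36me3 by distance in kb from the centre of the 145 runs, with 1 line per library of WT, morc-1 and hrde-1. At the centre WT late stands at 24.5 FPKM of H3K9me3 and at between 8.35 and 9.01 FPKM of H3K36me3. There hrde-1 late stands at 8.35 and 9.22 for H3K9me3 and at 15.1 and 14.8 for H3K36me3.

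At the centres of the runs WT late had less H3K36me3 than at 10 kb to the left, which is called a dip here. Values to the right are not given for this mark, so the dip is described for the left side only. The peak of H3K9me3 in WT late, at 24.5 FPKM at the centre against 11.6 at 10 kb to the left and 13.4 at 10 kb to the right, was set by the rule. In WT early, which the rule did not use, mean H3K9me3 was 17.8 FPKM at the centre, 10.7 at 10 kb to the left and 12.2 at 10 kb to the right. H3K36me3 in the WT late libraries was 8.35, 8.52 and 9.01 FPKM at the centre and 12.8, 12.2 and 12.6 at 10 kb to the left. The hrde-1 late libraries had no such dip, with 15.1 and 14.8 FPKM of H3K36me3 at the centre and 15.3 and 14.4 at 10 kb to the left. In morc-1 late the dip was shallow, with 12.1 and 12.9 FPKM at the centre and 12.9 and 13.4 at 10 kb to the left.

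H3K36me3, measured in libraries that the rule did not use, was higher at the members in both mutants. Its median over members was 6.72, 6.72 and 7.64 FPKM in WT late, 13.5 and 12.8 in hrde-1 late and 10.2 and 11.2 in morc-1 late. The medians of the 3 groups did not overlap, and morc-1 was in the middle. By limma on log2(FPKM + 1) over 100250 regions, at a Benjamini-Hochberg adjusted p under 0.05, H3K36me3 was higher in hrde-1 late than in WT late at 170 members, where 1.92% of all regions were higher. It was lower at 3 members, where 11.5% of all regions were lower. The median change was 0.73 on the log2 scale over members and −0.28 over all regions. The value over all regions depended on the scaling, at −0.25 on the ratio to input, −0.003 after quantile normalization and 0.11 after centring each library on its median region, where the members' medians were 0.73, 0.67 and 1.12. Without hrde-1 late replicate 1 the count of higher members was 98.

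In morc-1 late, H3K36me3 was higher than in WT late at 68 members and lower at 3, where 0.42% and 0.00998% of all regions were called. The median change was 0.50 over members and −0.03 over all regions. The change was above 0 at 238 members, and at 42695 of all 100250 regions. A rise with an unadjusted p under 0.05 was found at 164 members. Without morc-1 late replicate 2, the library of generation 5, 31 members were higher. The hrde-1 and morc-1 comparisons share the WT libraries, so their counts stand side by side only.

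Compared directly, H3K36me3 was higher in hrde-1 late than in morc-1 late at 27 members and lower at 1, where 0.614% and 1.08% of all regions were called. The median difference was 0.21 over members and −0.23 over all regions. Without hrde-1 late replicate 1 the count of higher members was 10. It was 19 after quantile normalization, 45 with 4 lower on the ratio to input, and 72 after centring each library. At the strongest of them, IV 1131001 to 1132000, H3K36me3 was 17.8 and 17.0 FPKM in hrde-1 late, 3.16 and 4.96 in morc-1 late and 4.01, 2.87 and 5.95 in WT late. Here morc-1 overlapped WT, and hrde-1 exceeded morc-1 by 1.89 on the log2 scale (SE 0.221, limma adjusted p = 1.84e-07). The region lower in hrde-1, I 13275001 to 13276000, read 1.54 and 3.84 FPKM in hrde-1 late and 5.33 and 5.87 in morc-1 late (limma adjusted p = 0.0496).

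**Figure D3:**
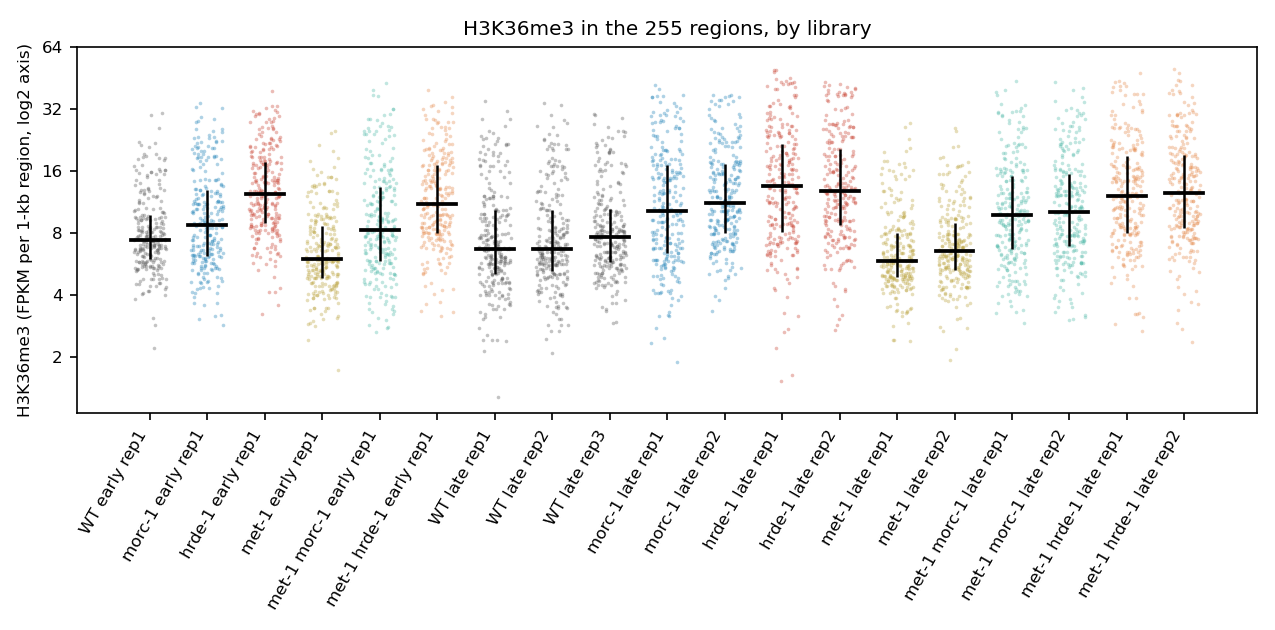
H3K36me3 in FPKM on a log2 axis for each of the 255 regions (points) in each of the 19 libraries; the horizontal bar is the median and the vertical bar spans the quartiles. The hrde-1 late medians (13.5 and 12.8 FPKM) and those of met-1 hrde-1 late (12.2 and 12.6) lie above morc-1 late (10.2 and 11.2), WT late (6.72 to 7.64) and met-1 late (5.9 and 6.58).

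The largest rise in hrde-1 was at IV 2912001 to 2913000. H3K36me3 there was 6.77, 9.1 and 7.23 FPKM in WT late, 36.8 and 38.0 in hrde-1 late and 11.9 and 15.6 in morc-1 late, with no overlap between the groups. The hrde-1 rise was 2.15 on the log2 scale (SE 0.161, limma adjusted p = 3.25e-11). Its H3K9me3 was 34.6 FPKM in WT late, 6.08 and 8.86 in hrde-1 late and 23.8 and 23.1 in morc-1 late. Next came 3 regions of the run at V 19866001 to 19870000, whose mean H3K36me3 was 5.9, 6.5 and 6.62 FPKM in WT late, 28.3 and 27.2 in hrde-1 late and 12.1 and 12.9 in morc-1 late. The mean H3K9me3 of this run was 32.6 FPKM in WT late, 8.52 and 9.16 in hrde-1 late and 20.2 and 19.4 in morc-1 late. At both loci morc-1 had more H3K9me3 and less H3K36me3 than hrde-1.

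In morc-1 the largest rise was at I 2058001 to 2059000, inside the longest run. H3K36me3 there was 5.09, 5.89 and 5.95 FPKM in WT late, 24.9 and 22.2 in hrde-1 late and 16.3 and 25.2 in morc-1 late. The morc-1 libraries lay above all WT libraries, by 1.68 on the log2 scale (SE 0.181, limma adjusted p = 3.14e-07). In generation 1 the same region read 6.61 FPKM (WT), 6.21 (morc-1) and 24.9 (hrde-1), so morc-1 was at the WT level early and the hrde-1 level was high at once. Over the whole run, H3K36me3 was called higher at 10 of 10 regions in hrde-1 late and at 9 in morc-1 late.

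Other members had high H3K36me3 in morc-1 already in generation 1. I 11682001 to 11683000 had early H3K36me3 of 6.96 FPKM (WT), 13.8 (morc-1) and 15.9 (hrde-1). Its late values were 4.59, 4.54 and 6.05 FPKM (WT), 17.1 and 16.3 (morc-1) and 17.4 and 16.9 (hrde-1). V 15595001 to 15596000 had early values of 7.77 FPKM (WT), 24.0 (morc-1) and 22.5 (hrde-1). At both, morc-1 stood near hrde-1 from the first generation at 25 °C. The second was among the 5 members with the largest H3K9me3 falls in morc-1, from 28.1 FPKM in WT late to 6.53 and 8.09.

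A large loss of H3K9me3 did not always come with a large rise of H3K36me3. IV 3053001 to 3054000 went from 21.2 FPKM of H3K9me3 in WT late to 4.45 and 5.9 in morc-1 late and 3.3 and 3.17 in hrde-1 late. Its H3K36me3 was 5.37, 5.59 and 7.04 FPKM in WT late, 8.71 and 9.17 in hrde-1 late and 10.2 and 10.2 in morc-1 late. Across the 255 members the H3K9me3 fall and the H3K36me3 change had a Pearson r of 0.29 and a Spearman rho of 0.35 in hrde-1, and 0.15 and 0.33 in morc-1. The H3K9me3 falls are the values that chose the members and start at 0.7 and 0.5, and the regions share libraries and, within runs, a locus, so these values only describe the members.

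In the early H3K36me3 libraries, 1 per strain and without a test, the medians over all members had the same order as the late ones. The median over members was 7.46 FPKM for WT, 8.79 for morc-1 and 12.4 for hrde-1. Not every chromosome followed it. On II morc-1 early was below WT early (6.62 against 8.29 FPKM), and on X they were level (8.565 against 8.57 FPKM). A rise of at least 0.5 was found at 143 members in hrde-1 early, against 3.28% of all regions, and at 50 in morc-1 early, against 1.39%. From early to late the morc-1 median went from 8.79 to 10.2 and 11.2 FPKM, whereas that of hrde-1 went from 12.4 to 13.5 and 12.8.

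The 3 members lower in H3K36me3 in both hrde-1 and morc-1 were the touching regions II 4257001 to 4260000, and their input was unequal. At II 4258001 to 4259000 the WT inputs were 54.5 FPKM early and 50.7 late, and those of the other strains 8.45 to 9.82. H3K36me3 there was 19.9, 23.9 and 22.8 FPKM in WT late, 2.22 and 3.07 in hrde-1 late and 3.16 and 4.35 in morc-1 late, and H3K9me3 was 55.4 FPKM in WT late and 10.4 to 14.7 in the late mutant libraries. Both marks thus followed the input. II 4258001 to 4259000 and II 4259001 to 4260000 also had the largest H3K9me3 falls in morc-1. In the other 252 members the inputs of all strains lay within 0.953 of each other on the log2 scale. On the ratio to input 209 of the 255 members still met the falls of the rule, among them 0 of the 3. Without them the counts of higher members were as before, at 170 and 68, and no member was lower.

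The authors' deposited table also holds yes or no marks for these regions. It marks 144 members (56.5%) as lower in H3K9me3 in hrde-1 of generation 1, against 0.783% of all regions, and 17 members in morc-1, against 0.0559%. As higher in H3K36me3 in late hrde-1 it marks 89 and 87 members by replicate (34.9% and 34.1%), against 0.524% and 0.479% of all regions. For late morc-1 these were 33 and 20 members (12.9% and 7.84%), against 0.104% and 0.0898%. Both are fewer than the members called higher by limma here. For genes up in hrde-1 in generation 4 the authors' deposited table marks 34 members (13.3%), against 5.65% of all regions, and for genes up in morc-1 23 members (9.02%), against 7.41%. Of the 170 members with higher H3K36me3 in hrde-1, the authors' deposited table places 30 (17.6%) at genes up in hrde-1, and of the other 85 it places 4 (4.71%).

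Loss of met-1 alone left H3K36me3 at most members uncalled. The median over members was 5.9 and 6.58 FPKM in met-1 late, against 6.72, 6.72 and 7.64 in WT late, without overlap. By limma H3K36me3 was lower in met-1 late than in WT late at 32 members, where 2.48% of all regions were lower, and higher at 0, where 0.0569% were higher and 2 members had a rise with an unadjusted p under 0.05. The median change was −0.12 over members and 0.01 over all regions. It depended on the scaling, at −0.01 over members after quantile normalization, with 23 lower and 2 higher. On the ratio to input it was −0.16, with 45 lower and 1 higher, and after centring each library −0.10, with 17 lower and 0 higher. Without met-1 late replicate 1 the lower count was 11, and without replicate 2 it was 20. The strongest, apart from the regions of unequal input, was X 152001 to 153000, with 22.9, 21.1 and 20.2 FPKM in WT late and 7.85 and 9.3 in met-1 late. The fall was −1.23 on the log2 scale (SE 0.159, limma adjusted p = 1.09e-05).

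Without met-1 the rises in the hrde-1 and morc-1 mutants were still found. The median over members was 12.2 and 12.6 FPKM in met-1 hrde-1 late and 9.83 and 10.1 in met-1 morc-1 late, against 5.9 and 6.58 in met-1 late, and none of these groups overlapped. By limma 125 members were higher in met-1 hrde-1 late than in met-1 late, where 0.706% of all regions were higher, and 0 were lower, where 0.0988% were lower and 1 member had a fall with an unadjusted p under 0.05. In met-1 morc-1 late 70 members were higher, where 0.27% of all regions were higher, and 0 were lower, where 0.0329% were lower and 2 members had a fall with an unadjusted p under 0.05. The median changes were 0.74 and 0.53 over members and −0.15 over all regions in each comparison, with −0.005 and −0.001 over all regions after quantile normalization. In the early libraries, without a test, a rise of at least 0.5 was found at 165 members in met-1 hrde-1, against 3.85% of all regions, and at 97 in met-1 morc-1, against 0.93%. The late count for met-1 morc-1 was 43 without met-1 late replicate 1, 43 without met-1 morc-1 late replicate 1 and 38 without its replicate 2.

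The comparisons with and without met-1 share no H3K36me3 library. Of the members higher in hrde-1 and of those higher in met-1 hrde-1, 120 were in both lists, which is 70.6% of the 170 and 96.0% of the 125. For morc-1 40 were in both lists, which is 58.8% of the 68 and 57.1% of the 70. IV 2779001 to 2780000 is a member high in all 4 mutant groups, with 26.6 and 28.2 FPKM in hrde-1 late, 18.2 and 22.3 in morc-1 late, 23.3 and 25.1 in met-1 hrde-1 late and 23.4 and 22.8 in met-1 morc-1 late. It read 4.3, 7.23 and 7.18 FPKM in WT late and 4.26 and 4.73 in met-1 late, so these groups did not overlap with the others.

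**Figure D4:**
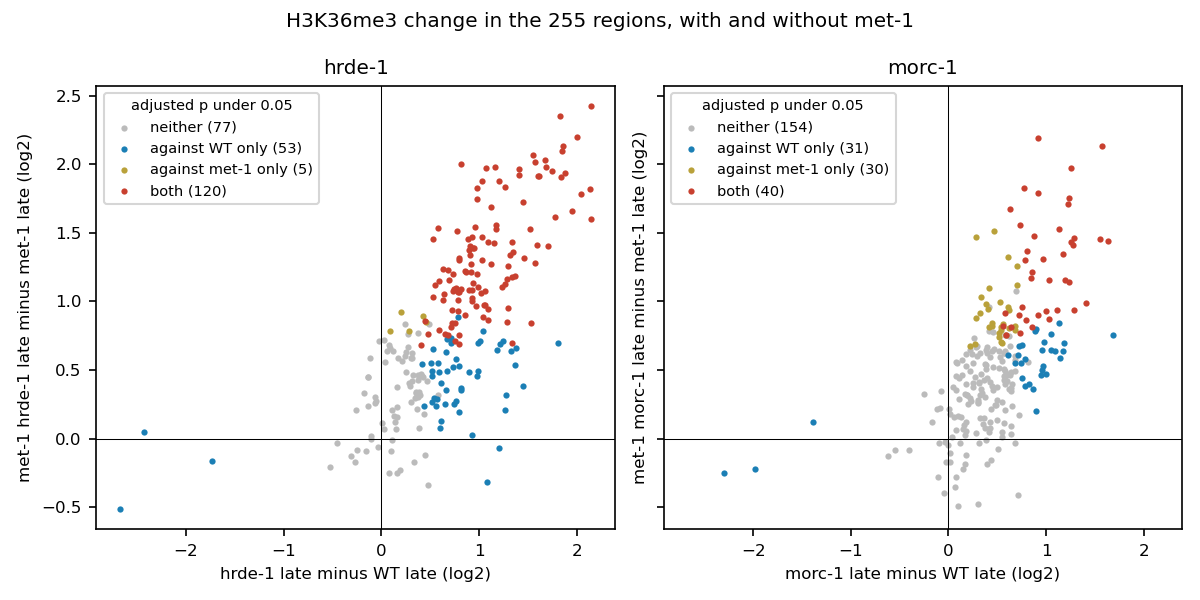
Change in H3K36me3 on the log2 scale at each of the 255 regions with met-1 present (horizontal axis, against WT late) and with met-1 lost (vertical axis, against met-1 late), for hrde-1 and for morc-1. The 2 axes share no library, and 120 regions for hrde-1 and 40 for morc-1 were called higher on both.

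The difference between these changes was tested as an interaction. For hrde-1 by met-1 it was called at 4 members, 3 higher and 1 lower, where 0.0219% and 0.014% of all regions were called. For morc-1 by met-1 it was called at 3 members, all higher, where 0.00698% of all regions were higher and 0.00599% lower. II 4258001 to 4259000 and II 4259001 to 4260000, of unequal input, are in both counts. On the ratio to input 13 members were higher and 6 lower for hrde-1, and 11 and 5 for morc-1, and after centring each library 3 and 3 for hrde-1. An unadjusted p under 0.05 was found at 47 higher and 16 lower members for hrde-1 and at 28 and 9 for morc-1. At most members, then, the test did not find that the change differed with met-1, which does not show that it was the same.

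Set against the mutants that keep met-1, the double mutants were lower at a minority of members. By limma H3K36me3 was lower in met-1 hrde-1 late than in hrde-1 late at 28 members and higher at 3, where 5.9% and 1.01% of all regions were called, and the counts were 8 higher and 17 lower after quantile normalization and 11 and 35 on the ratio to input. Without hrde-1 late replicate 1 the counts were 0 higher and 19 lower, and without met-1 hrde-1 late replicate 1 they were 0 and 17. In met-1 morc-1 late against morc-1 late 25 members were lower and 2 higher, where 5.79% and 0.911% of all regions were called. That direction depended on the scaling, with 8 higher and 12 lower after quantile normalization, 8 and 35 on the ratio to input, and 11 and 4 after centring each library. Without met-1 morc-1 late replicate 1 the lower count was 7 and without its replicate 2 it was 15, and it was 14 and 12 without morc-1 late replicates 1 and 2.

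A group of 7 members was lower with loss of met-1 in all 3 backgrounds. They are 2 regions at V 17536001 to 17538000 and 5 at X 150001 to 155000. The share of all regions lower in all 3 was not computed, so the group cannot be set against it. Taken singly against WT, hrde-1 and morc-1, loss of met-1 was called lower at 2.48%, 5.9% and 5.79% of all regions. On X these shares were 5.08%, 12.3% and 12.3%. V 17537001 to 17538000 had 15.8, 15.02 and 17.1 FPKM in WT late, 43.5 and 40.2 in hrde-1 late and 31.0 and 30.1 in morc-1 late. With met-1 lost it had 9.62 and 7.8 FPKM in met-1 late, 14.4 and 14.9 in met-1 hrde-1 late and 8.87 and 11.5 in met-1 morc-1 late. The fall was −1.45 on the log2 scale from hrde-1 to met-1 hrde-1 (SE 0.165, limma adjusted p = 1.94e-07). Here every late library without met-1 was below every late library with it.

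The run at X 149001 to 157000 holds the other 5. Its mean H3K36me3 was 20.1, 18.2 and 17.1 FPKM in WT late, 28.3 and 28.4 in hrde-1 late and 27.6 and 22.0 in morc-1 late. In met-1 late it was 9.14 and 9.34 FPKM, in met-1 hrde-1 late 11.7 and 14.3 and in met-1 morc-1 late 14.3 and 15.4. At this run, too, every late library without met-1 was below every WT late library, whereas WT early, at 14.3 FPKM, was not above all of them. Of its 8 regions, 6 were called higher in hrde-1 late and 7 lower in met-1 late.

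On chromosome X the members' H3K9me3 in hrde-1 early stood nearer to WT early than on the autosomes. This split was chosen after the values were seen and was not itself tested. The 34 members on X form 16 runs and the 221 on autosomes 129. Median H3K9me3 on X was 16.1 FPKM in WT early, 15.3 in hrde-1 early and 8.45 and 8.48 in hrde-1 late. On the autosomes it was 16.4 FPKM in WT early, 7.96 in hrde-1 early and 7.04 and 8.32 in hrde-1 late. On X hrde-1 was thus near WT in generation 1, while on the autosomes it was already low, and the low late values on both were set by the rule. A fall of at least 0.5 in hrde-1 early was found at 5 of 34 members on X and 187 of 221 on autosomes, against 1.02% and 3.91% of all regions there.

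H3K36me3 in hrde-1 early, too, was nearer to WT early on X. Its median over the X members was 8.57 FPKM in WT early and 8.89 in hrde-1 early, then 6.85, 7.05 and 7.49 in WT late and 13.1 and 12.8 in hrde-1 late. A rise of at least 0.5 was already found in hrde-1 early at 6 of 34 members on X, against 2.04% of all X regions, and at 137 of 221 on the autosomes, against 3.55%. In hrde-1 late 23 of 34 members on X were called higher than in WT late, in 12 runs, where 1.58% of all X regions were, and on the autosomes 147 of 221, where 1.99% were. The hrde-1 early libraries of the 2 marks carry different series numbers in their sample names, and the H3K36me3 one shares that of WT early.

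Without met-1 few members on X were called higher in hrde-1. The X median was 6.49 and 7.06 FPKM in met-1 late and 7.45 and 8.54 in met-1 hrde-1 late, and 3 of 34 members were called higher, where 0.102% of all X regions were. On the autosomes 122 of 221 members were called higher, where 0.836% of all autosomal regions were. Set against hrde-1 late, met-1 hrde-1 late was lower at 18 of 34 members on X, in 9 runs, where 12.3% of all X regions were lower, and at 10 of 221 on the autosomes, where 4.53% were. The interaction of hrde-1 with met-1 was called by limma at 0 members on X, with 9 lower and 0 higher at an unadjusted p under 0.05 and a median of −0.44 on the log2 scale, so no difference in the hrde-1 rise with met-1 was established there. In met-1 morc-1 late the X median was 9.77 and 9.82 FPKM, above both met-1 late and met-1 hrde-1 late.

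**Figure D5:**
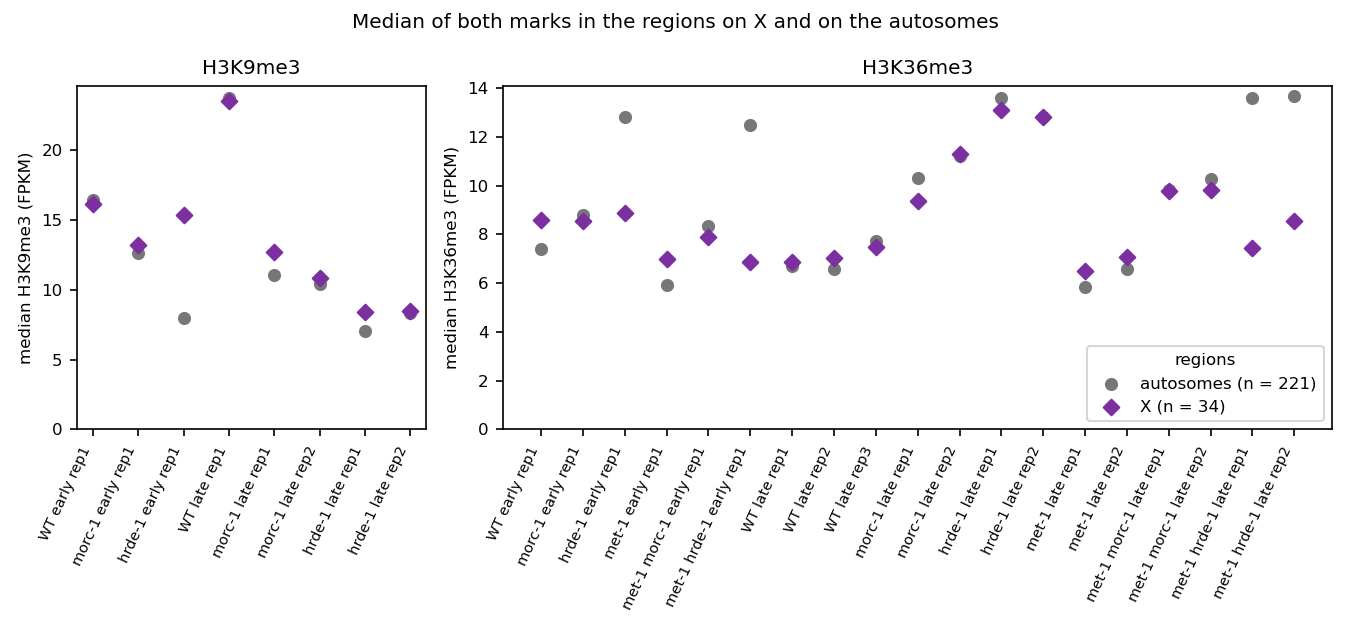
Median FPKM of H3K9me3 and H3K36me3 over the 34 regions on chromosome X and the 221 on autosomes, with 1 point per library. On X the hrde-1 early library stands at 15.3 FPKM of H3K9me3, next to WT early at 16.1 and above morc-1 early at 13.25. On the autosomes the hrde-1 early library stands at 7.96, against 16.4 in WT early and 12.67 in morc-1 early.

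Set beside other sets of regions, the order of the shares of H3K36me3 calls changed with the comparison. In hrde-1 late H3K36me3 was called higher than in WT late at 66.7% of members, 67.2% of the 381 GRH or GRTS regions of the authors' deposited table, 55.1% of the 69 kept regions and 0.353% of the 7645 independent regions. In morc-1 late against WT late these shares were 26.7%, 19.2%, 37.7% and 0%. In hrde-1 late against morc-1 late they were 10.6%, 33.9%, 43.5% and 0.131%, and 39.1% of the kept regions were lower. In met-1 hrde-1 late against met-1 late they were 49%, 59.6%, 33.3% and 0.0785%, and in met-1 morc-1 late against met-1 late 27.5%, 22%, 0% and 0.0131%. No test of these differences between sets was made. The input of the kept regions was unequal. The morc-1 late input was above that of WT late by at least 0.5 on the log2 scale at 27 of the 69. The hrde-1 late input was below that of WT late by at least 0.5 at 24. Those counts were 4 and 4 for the 255 members, and 1701 and 1113 for all 100250 regions. The part of input in the shares of the kept regions was not tested.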

How the data were processed

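The chromatin values were FPKM per 1 kb region, as deposited by the authors in a table for the series, with 8 H3K9me3, 19 H3K36me3 and 12 input libraries. The mRNA values were FPKM per gene, also deposited by the authors. The submitters' processing notes name Trimmomatic 0.35, Bowtie 0.12.7 and TopHat2; the genome build is not given in the sources used here. A further 12 columns matched no sample and were not used. From the FPKM values, log2(FPKM + 1) was computed for the 100250 regions whose input averaged 2 FPKM or more. H3K36me3 was tested with limma 3.58.1 in R 4.3.3, with 1 mean per group over all H3K36me3 libraries and Benjamini-Hochberg adjustment over all regions. The mRNA test was the same over 12378 genes with a mean of at least 1 FPKM. The fits were tested on simulated data. The decimals of the values gave a step per library (within 0.1 fragments, 83.1% to 88.4% of values were whole), from which depth was estimated.

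Groups come from the labels. The members, gene lists and tests were chosen with earlier results of these data known. Named regions are the 10 longest runs, the 5 largest morc-1 falls, the 3 nearest each side of the threshold and, per H3K36me3 comparison, up to 5 called members each way without overlap. The regions of unequal input, those lower in all 3 met-1 comparisons, and the X split were chosen after their values were seen. Alternatives were the pseudocount, the input minimum, scaling, division by input, fewer groups in the fit, replicate blocks and each replicate left out. No annotation of the build was at hand, so regions were not linked to genes or small RNAs.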

Additional observations from a re-analysis of the deposited data

Results flagged for a closer look

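At 7 tests over 5 members the H3K36me3 change in a mutant differed with and without met-1, by limma's interaction term with Benjamini-Hochberg adjustment. Of these tests, 4 are at the regions of unequal input. At II 4258001 to 4259000 the difference of differences on the log2 scale was 2.16 for hrde-1 (adjusted p = 0.00014) and 2.04 for morc-1 (adjusted p = 0.00198). At II 4259001 to 4260000 it was 2.47 for hrde-1 (adjusted p = 6.22e-05) and 1.77 for morc-1 (adjusted p = 0.0153). At both, only the WT inputs were high.

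The other 3 members had no such input. At II 2523001 to 2524000 the difference was −1.40 for hrde-1 (SE 0.28, limma adjusted p = 0.0417). H3K36me3 was 3.58, 4.33 and 5.59 FPKM in WT late and 11.4 and 9.69 in hrde-1 late, and 5.04 and 5.34 in met-1 late and 4.59 and 3.4 in met-1 hrde-1 late. The rise in hrde-1 late was thus not seen without met-1.

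At V 16928001 to 16929000 the difference was 1.19 for hrde-1 (SE 0.22, limma adjusted p = 0.0262). H3K36me3 rose from 12.2, 12.9 and 11.6 FPKM in WT late to 25.4 and 19.4 in hrde-1 late, and from 6.03 and 5.59 in met-1 late to 27.5 and 25.1 in met-1 hrde-1 late. The start was lower without met-1, and the end was not.

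At V 19769001 to 19770000 the difference was 1.19 for morc-1 (SE 0.22, limma adjusted p = 0.0379). H3K36me3 was 17.1, 16.9 and 17.4 FPKM in WT late and 23.6 and 18.7 in morc-1 late, and 7.45 and 9.89 in met-1 late and 25.8 and 25.2 in met-1 morc-1 late. The change was 0.28 against WT and 1.47 against met-1.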

How the results depend on the processing

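Counts here are of members called higher or lower together, and the cause of each move was not tested. On the ratio to input the count was 49 rather than 28 for hrde-1 against morc-1, 43 rather than 27 for met-1 morc-1 against morc-1, and 19 and 16 rather than 4 and 3 for the interactions of hrde-1 and morc-1 with met-1. On that ratio 5 single values changed sign, all at the regions of unequal input: II 4259001 and II 4257001 in morc-1 against WT (0.35 and 0.14 on the log2 scale) and II 4259001, II 4258001 and II 4257001 in met-1 against WT (0.32, 0.54 and 0.26). After centring each library on its median region, added after seeing the data, the counts were 72 for hrde-1 against morc-1, 17 for met-1 against WT and 15 for met-1 morc-1 against morc-1. Without the 3 regions of unequal input, also added, the interactions were called at 2 and 1 members. With a pseudocount of 4 the median early H3K9me3 difference in hrde-1 was −0.70.

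Libraries with the same replicate number were in part paired, which the main fit did not model. Deviations of libraries with the same number in the title correlated at −0.208 to 0.322, and with other numbers at −0.381 to 0.381. Within the same series of the sample name they correlated at −0.205 to 0.322. Most values for the same number or series were above 0, and those below 0 all involved a morc-1 late library. Outside WT late the deviations within a group are mirror images. The values for other numbers therefore largely repeat the same ones with the sign changed, and cannot show a lack of pairing. With the title number as a replicate block the counts were 43 for hrde-1 against morc-1 and 44 for met-1 morc-1 against morc-1. With the series of the sample name as the block they were 44 for hrde-1 against morc-1, 56 for met-1 against WT, 133 for met-1 morc-1 against met-1 and 61 for met-1 hrde-1 against hrde-1. The interactions were not refitted with a block. Within single series the member median was 0.79 and 0.70 for hrde-1 against WT and 0.46 for morc-1 against WT.

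With each replicate left out in turn, the count ran from 101 to 162 for hrde-1 against WT, 34 to 64 for morc-1 against WT, 10 to 30 for hrde-1 against morc-1 and 11 to 25 for met-1 against WT. It ran from 101 to 112 for met-1 hrde-1 against met-1, 38 to 55 for met-1 morc-1 against met-1, 17 to 22 for met-1 hrde-1 against hrde-1, 7 to 17 for met-1 morc-1 against morc-1, and 2 to 4 and 0 to 3 for the interactions. A group left with 1 library was assumed to vary like the others. Of the recomputed values of the main results, 126 stayed within the bounds set for no change and 39 moved. Of the other recomputed values, which include those of single regions, 735 stayed the same, 38 became weaker, 5 changed sign and 3 moved. The settings intended for mRNA and small RNA at members were not run, because regions could not be linked to genes.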
